A study of Mus musculus with 8 samples.

Results

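The oncofetal Hmga and Igf2bp genes are 5 genes (Hmga1, Hmga2, Igf2bp1, Igf2bp2 and Igf2bp3) chosen by symbol among the 12393 genes that could be named on these arrays. Probe sets with a single gene symbol were found for 3 of the 5, namely 3 probe sets of Hmga2, 2 of Igf2bp1 and 4 of Igf2bp3, and Hmga1 and Igf2bp2 were not analysed here. Total RNA was measured on 8 Affymetrix arrays of mouse tissue. The groups were 4 primary soft tissue sarcomas of Braf Ca/Ca; p53 Fl/Fl mice, 2 primary sarcomas of Braf Ca/+; p53 Fl/Fl mice, 1 normal muscle of a Braf Ca/Ca; p53 Fl/Fl mouse and 1 normal muscle of a Braf Ca/+; p53 Fl/Fl mouse. Every group carried the floxed p53 alleles and at least 1 BrafCa allele, the muscles included. Sarcomas were induced by an adenovirus that delivers Cre recombinase, the enzyme that acts on conditional alleles, and each muscle came from a hind limb that bore no tumour. The labels give no age, do not say whether any allele had recombined in the muscles, and do not state whether each array is a different animal, so the p-values cover only the variation seen among these arrays, technical variation included.

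HMGA proteins are small chromatin proteins that bind AT-rich DNA through AT-hook motifs and bend it, so that other factors can assemble on promoters and enhancers. IGF2BP proteins bind mRNAs in the cytoplasm and govern where these mRNAs go, how long they last and how much they are translated, with the mRNA of insulin-like growth factor 2 as the namesake. Most of these genes are active in embryos and little used in adult tissues, and their mRNAs are known targets of the let-7 microRNAs, which accumulate as tissues mature. Mature let-7 was not measured here, and its sequence is shown because it is the repressor that the family shares, with the seed (bases 2 to 8) in capitals. Of 10 let-7 names with a 5-prime or single mature form in RefSeq (GRCm38.p6), 9 have this seed, among them let-7a at chr13:48538239-48538260 (minus strand) and let-7g at chr9:106178846-106178867 (plus strand).
let-7a: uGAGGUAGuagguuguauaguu
let-7g: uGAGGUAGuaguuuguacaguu

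The promoter of Hmga2, the member with the large difference below, is shown as the 250 bases before the gene start in RefSeq on GRCm38.p6 (chr10:120476470-120476719, minus strand). CTCTCT is in capitals, searched on both strands with overlapping matches counted.
Hmga2 promoter: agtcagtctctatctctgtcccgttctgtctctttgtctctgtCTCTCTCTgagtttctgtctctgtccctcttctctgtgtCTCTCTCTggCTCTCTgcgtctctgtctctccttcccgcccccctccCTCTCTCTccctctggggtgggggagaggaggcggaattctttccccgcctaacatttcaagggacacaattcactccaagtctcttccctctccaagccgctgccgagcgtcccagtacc
The Hmga2 stretch held CTCTCT at 7 positions, and 23.4% of 32851 RefSeq promoter stretches of the same length held it at least once. How many of them held it at 7 positions was not counted. C and T made up 70.8% of its bases, a share that 0.414% of those stretches reached. It held no CACGTG and no TATAAA, which 6.02% and 12.4% of the stretches held. GGGCGG was found at 1 position, and 32.7% of the stretches held it. These are descriptions of letters, and the arrays say nothing of factors bound there.

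The Ca/+ muscle stood apart from the other 7 arrays in sex-linked RNA. Eif2s3y, a Y-linked gene, read 2.05 to 2.32 in the 6 sarcomas, 2.26 in Ca/Ca muscle and 7.65 in Ca/+ muscle. Xist, the RNA that silences an X chromosome in female cells, read 9.34 to 10.90 in the sarcomas, 10.44 in Ca/Ca muscle and 5.59 in Ca/+ muscle. The labels give no sex, so the members' tissue differences and the lists' counts are also given without it.

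Hmga2 was abundant in every sarcoma, lower in the Ca/Ca muscle and lowest in the Ca/+ muscle. With the probe set of highest mean (1450780_s_at), which stands for the gene in the tests, its log2 level was 10.79, 10.61, 10.13 and 11.60 in Ca/Ca sarcomas 1, 2, 3 and 5, 11.41 and 10.94 in Ca/+ sarcomas 1 and 2, 8.57 in Ca/Ca muscle and 4.53 in Ca/+ muscle. All 6 sarcomas lay above both muscles. Sarcomas averaged 10.91 ± 0.54 (SD, n = 6) and muscles 6.55 ± 2.86 (SD, n = 2). Hmga2 thus rose by 4.36 on the log2 scale (SE 0.88, 95% interval 2.35 to 6.38), or 20.6-fold, in limma's test over 12393 genes (adjusted p = 0.00819). Of those genes, 13.1% passed as higher in sarcoma and 13.2% as lower, and the Hmga2 difference was the 4th highest of all. Limma's test assumes the same spread in both tissues, although the SDs of Hmga2 were 0.54 and 2.86. With 2 muscles this far apart, its SE and interval can understate the uncertainty. In bulk tissue, fewer cells that express a gene and less RNA per cell cannot be told apart.

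The other Hmga2 probe sets gave the same order. Probe set 1422851_at read from 9.88 to 11.32 (median 10.69) in the 6 sarcomas, 8.48 in Ca/Ca muscle and 4.63 in Ca/+ muscle. Probe set 1450781_at read from 8.91 to 11.22 (median 10.10) in the sarcomas, 7.38 in Ca/Ca muscle and 2.61 in Ca/+ muscle. Fitted over all 22626 probe sets, where 13.1% passed as higher, the 3 sets rose by 4.36, 4.17 and 5.21 (adjusted p = 0.00827, 0.00837 and 0.00974). The sets read 1 gene on the same arrays and are not independent replicates. The reading of 2.61 lies in the range of genes with little or no RNA in these tissues: 31 olfactory receptor genes had a median of 2.92 over the 8 arrays and a 95th percentile of 3.95. The difference of 1450781_at is therefore a lower bound, and since probe sets differ in brightness this range is only a rough guide.

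**Figure D1:**
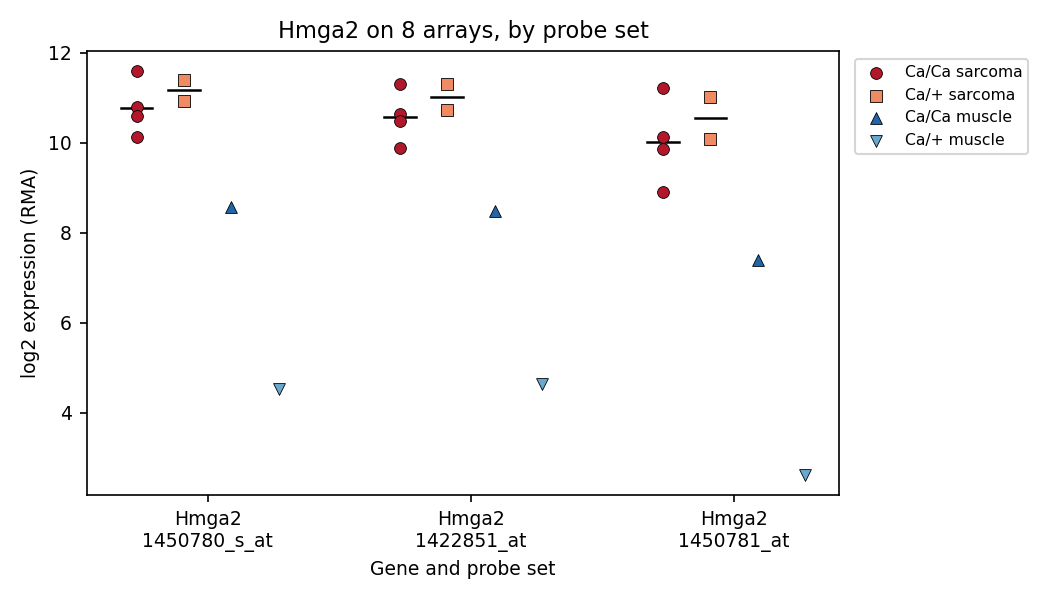
Log2 expression (RMA) of the 3 Hmga2 probe sets on each of the 8 arrays, with 1 point per array and a short line at the mean of each sarcoma genotype. On 1450780_s_at the sarcomas sit between 10.13 and 11.60, above the Ca/Ca muscle at 8.57 and the Ca/+ muscle at 4.53, and the other probe sets show the same order.

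Which muscle served as the comparison set the size of the Hmga2 difference. The sarcoma mean stood 2.34 above the Ca/Ca muscle (5.05-fold) and 6.39 above the Ca/+ muscle (83.6-fold). Among genes with a large gap to the Ca/+ muscle, a Ca/Ca muscle level in between was not particular to Hmga2. In 376 genes the sarcoma mean stood at least 2 (log2) above the Ca/+ muscle. Over these genes the Ca/Ca muscle lay a median of 46.8% of the way from the Ca/+ muscle to the sarcoma mean. For Hmga2 it lay 63.4% of the way, a share that 23.7% of these genes reached. Choosing genes by their gap to the single Ca/+ muscle array itself favours a Ca/Ca muscle level nearer the sarcomas. These shares are therefore a description, and no set chosen by the gap to the Ca/Ca muscle was examined. Hmga2 passed with either muscle left out, at adjusted p = 0.0296 without the Ca/+ muscle and 0.00035 without the Ca/Ca muscle. Among Ca/Ca arrays only, 4 sarcomas against their 1 muscle, the difference of 2.21 did not pass (adjusted p = 0.0993). Among Ca/+ arrays only, 2 sarcomas against 1 muscle, it was 6.65 (adjusted p = 0.021). In these fits the lone muscle is assumed to vary as the sarcomas do. The interaction of tissue and genotype, which tests whether the tissue difference is alike in both genotypes, was -4.44 for Hmga2 (SE 0.77, 95% interval -6.29 to -2.58) and did not pass (adjusted p = 0.237), where 0.00807% of genes, 1 of 12393, did (Eif2s3y, 5.52, adjusted p = 0.00687). The muscles supplied most of that value, as the Ca/Ca muscle stood 4.05 above the Ca/+ muscle and the Ca/Ca sarcomas 0.39 below the Ca/+ sarcomas. The muscles also differed in Eif2s3y and Xist, as above, and with a single muscle per genotype these differences cannot be told apart.

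Both muscles held the RNA of muscle fibre. The mean log2 level of 12 fibre genes was 6.27 to 8.32 in the sarcomas, 12.43 in Ca/Ca muscle and 12.33 in Ca/+ muscle, and 12 of 12 fell, with either muscle left out as well. Of all genes, 13.1% passed as higher in sarcoma and 13.2% as lower, and the counts of each list stand beside these shares. Fewer genes of any kind passed without the Ca/+ muscle, and whether these lists lost more calls than other genes was not tested. Several lists were higher in the Ca/Ca muscle, as Hmga2 was, and others were lower there. The mean of 18 cell cycle genes was 6.66 to 8.53 in sarcomas, 6.40 in Ca/Ca muscle and 5.56 in Ca/+ muscle. For 10 satellite cell and myoblast genes the means were 5.01 to 5.42 in sarcomas, 6.05 in Ca/Ca muscle and 5.65 in Ca/+ muscle. Of these genes 1 rose and 8 fell (0 and 5 without the Ca/+ muscle). Among those that fell, Myf5 (1.80 to 2.70), Pax7 (2.46 to 3.72) and Myh8 (2.86 to 3.91) lay below the 3.95 of the olfactory receptors on every array. The mean of 12 macrophage genes was 9.78 to 10.88 in sarcomas, 10.38 in Ca/Ca muscle and 9.18 in Ca/+ muscle, with 1 of 12 rising (Cd68) and 0 without the Ca/+ muscle. The mean of 11 fibroblast genes was 9.63 to 10.47 in sarcomas, 10.65 in Ca/Ca muscle and 9.47 in Ca/+ muscle, with 1 of 11 rising (Thy1) and 0 without the Ca/+ muscle. For 7 Schwann cell and nerve genes the means were 6.12 to 7.20 in sarcomas, 6.48 in Ca/Ca muscle and 4.49 in Ca/+ muscle, with 3 of 7 rising (Nefl, Gap43 and Nefm) and 2 falling (S100b and Erbb3). With the Ca/+ muscle left out 0 rose and 2 fell. Nefl, Gap43 and Nefm read 9.05, 3.60 and 7.11 in the Ca/Ca muscle and 3.13, 2.70 and 2.78 in the Ca/+ muscle, where all 3 lay below the 3.95 of the olfactory receptors. In the other direction, the mean of 5 adipocyte genes was 5.28 to 7.31 in sarcomas, 9.68 in Ca/Ca muscle and 11.34 in Ca/+ muscle, and 5 of 5 fell (3 without the Ca/+ muscle). The mean of 7 lymphocyte genes was 4.49 to 7.19 in sarcomas, 6.22 in Ca/Ca muscle and 7.05 in Ca/+ muscle, with 0 passing. For 7 endothelial genes the means were 5.84 to 6.94 in sarcomas, 8.17 in Ca/Ca muscle and 8.28 in Ca/+ muscle, and 5 fell (3 without the Ca/+ muscle). The part of these cells in the Hmga2 level of the Ca/Ca muscle was not tested.

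**Figure D2:**
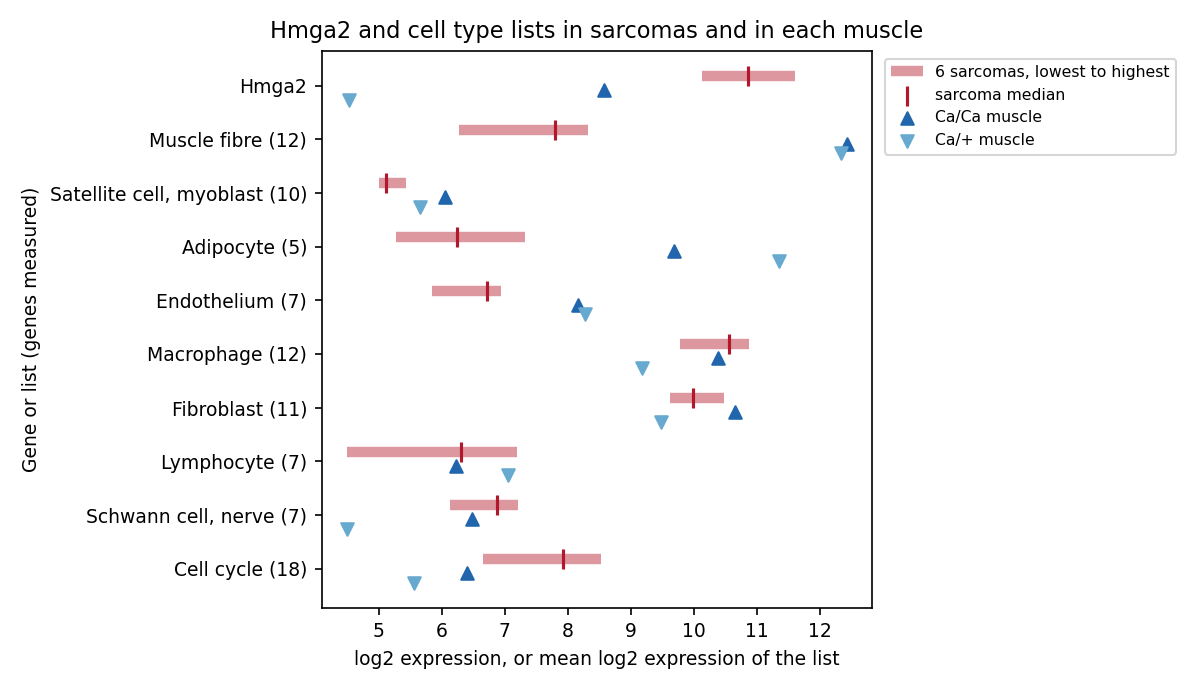
Log2 level of Hmga2 (top) and mean log2 level of cell type and cell cycle lists, with the number of genes measured in brackets. Bars run from the lowest to the highest of 6 sarcomas with a tick at the median, and triangles mark the Ca/Ca and Ca/+ muscles. Hmga2, satellite cell, macrophage, fibroblast, nerve and cell cycle levels are higher in the Ca/Ca than in the Ca/+ muscle. Adipocyte, lymphocyte and, slightly, endothelial levels are lower there. Fibre levels are within 0.1 of each other at 12.43 and 12.33.

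Igf2bp1, an mRNA-binding protein known for carrying actin mRNA and for shielding Myc mRNA from decay, read low on every array, and its probe sets disagreed. On 1449210_at, the set of highest mean, the level was 3.63, 3.32, 3.57 and 3.44 in Ca/Ca sarcomas 1, 2, 3 and 5, 3.72 and 3.54 in Ca/+ sarcomas 1 and 2, 3.41 in Ca/Ca muscle and 3.55 in Ca/+ muscle. The groups overlapped, and the difference of 0.06 (SE 0.14, 95% interval -0.26 to 0.37) did not pass (limma adjusted p = 0.804). The difference became negative when arrays were centred on housekeeping or on ribosomal protein genes, and when the Ca/Ca muscle was left out. On 1418761_at the level was 3.76, 2.84, 3.39 and 3.36 in Ca/Ca sarcomas 1, 2, 3 and 5, 2.93 and 2.67 in Ca/+ sarcomas 1 and 2, 2.27 in Ca/Ca muscle and 2.44 in Ca/+ muscle. Here all 6 sarcomas lay above both muscles, as they did for 20.4% of all probe sets. The difference of 0.80 (SE 0.28) did not pass over all probe sets (limma adjusted p = 0.0684). All 16 Igf2bp1 readings were below 3.95, the olfactory receptor 95th percentile.

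Igf2bp3, a relative that many tumours re-express, was low in muscle and somewhat higher in some sarcomas. On 1422610_s_at its level was 3.48, 4.61, 4.21 and 3.99 in Ca/Ca sarcomas 1, 2, 3 and 5, 4.77 and 5.26 in Ca/+ sarcomas 1 and 2, 3.92 in Ca/Ca muscle and 3.57 in Ca/+ muscle. Ca/Ca sarcoma 1 lay below both muscles and the other 5 sarcomas above them. Sarcomas averaged 4.39 ± 0.63 (SD, n = 6) and muscles 3.74 ± 0.25 (SD, n = 2), and the difference of 0.64 (SE 0.41, 95% interval -0.31 to 1.59) did not pass (limma adjusted p = 0.304). The 5 sarcomas above the muscles were also above 3.95, and no muscle was. On 1422611_s_at the level was from 3.10 to 4.86 (median 3.57) in sarcomas, 3.50 in Ca/Ca muscle and 2.93 in Ca/+ muscle, and 4 of 6 sarcomas exceeded both muscles. The remaining sets, 1453957_a_at (2.22 to 2.76 in sarcomas, 2.64 in Ca/Ca muscle and 2.35 in Ca/+ muscle) and 1450687_at (1.89 to 2.88 in sarcomas, 1.88 in Ca/Ca muscle and 1.69 in Ca/+ muscle), stayed below 3.95 on all arrays. None of the 4 sets passed over all probe sets, with adjusted p from 0.219 to 0.906 and differences from 0.04 to 0.64. An _s_at set can read transcripts of more than 1 gene, and the Igf2bp3 readings above 3.95 rest on sets of that kind alone, whereas 2 of the 3 Hmga2 sets are of another kind.

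**Figure D3:**
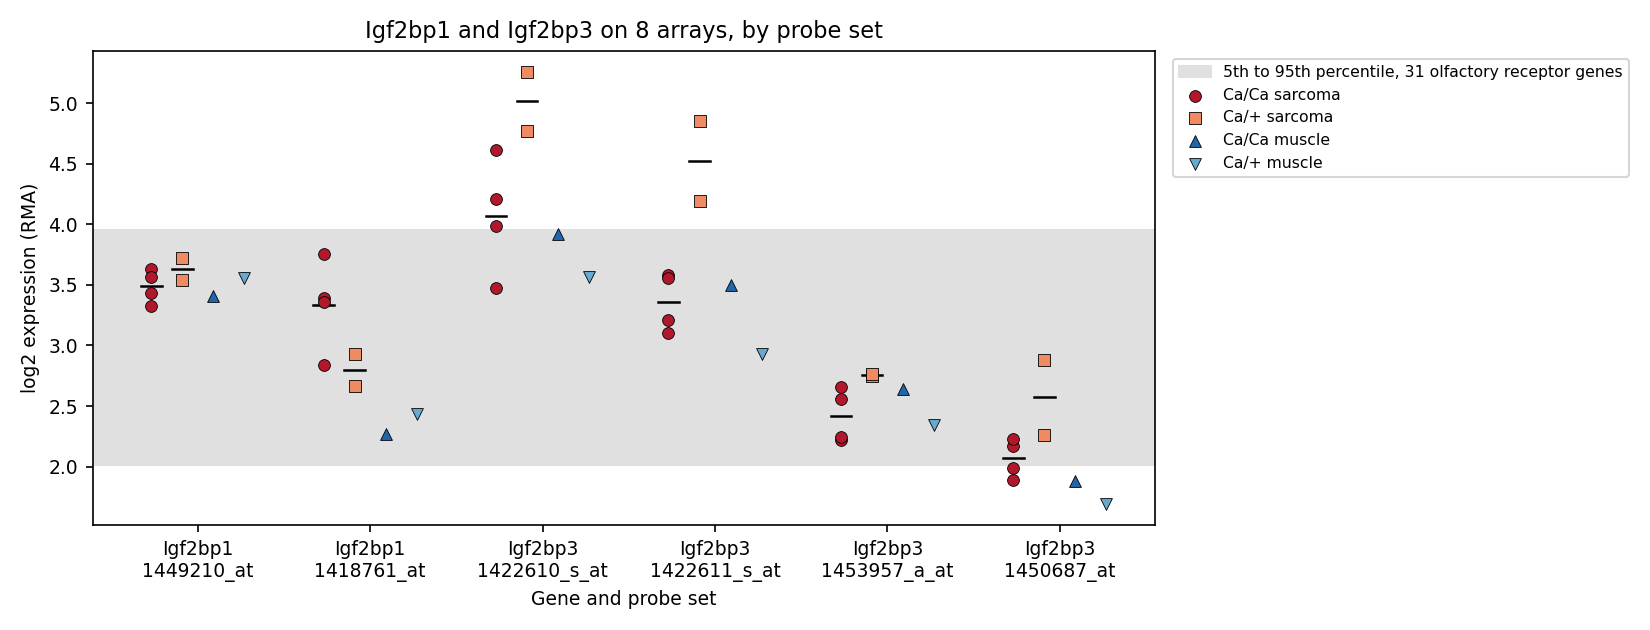
Log2 expression (RMA) of 2 Igf2bp1 and 4 Igf2bp3 probe sets on the 8 arrays, with a short line at the mean of each sarcoma genotype. The grey band spans the 5th to 95th percentile (2.01 to 3.95) of 31 olfactory receptor genes. Readings above the band belong to Igf2bp3 sets 1422610_s_at (5 sarcomas) and 1422611_s_at (both Ca/+ sarcomas).

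Of the 3 measured members, 1 rose in sarcoma (Hmga2), 0 fell and 2 did not pass, where 13.1% of all genes passed as higher and 13.2% as lower. Without the Ca/+ muscle Igf2bp1 differed by 0.13 and Igf2bp3 by 0.47 (limma adjusted p = 0.75 and 0.7). The Ca/Ca sarcomas were next set against the Ca/+ sarcomas, which carry a single BrafCa allele. No gene passed in limma (0% of 12393, with 7.84% at an unadjusted p under 0.05), so no member did. Hmga2 averaged 10.78 ± 0.61 (SD, n = 4) in Ca/Ca and 11.17 ± 0.33 (SD, n = 2) in Ca/+ sarcomas, a difference of -0.39 (95% interval -1.36 to 0.58, limma adjusted p = 0.799), and the groups overlapped. The interval for Igf2bp1 was -0.50 to 0.21 around a difference of -0.14 (limma adjusted p = 0.799). Igf2bp3 averaged 4.07 ± 0.47 (SD, n = 4) in Ca/Ca and 5.02 ± 0.34 (SD, n = 2) in Ca/+ sarcomas, a difference of -0.94 (SE 0.33, 95% interval -1.74 to -0.15, limma adjusted p = 0.624).

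On each of the 4 Igf2bp3 probe sets all 4 Ca/Ca sarcomas lay below both Ca/+ sarcomas, as they did for 10.7% of all probe sets. The 4 sets read 1 gene on the same arrays, so their agreement is not independent evidence. All readings of 1453957_a_at and 1450687_at were below 3.95, the olfactory receptor 95th percentile. The differences were -0.94, -1.16, -0.34 and -0.50 for 1422610_s_at, 1422611_s_at, 1453957_a_at and 1450687_at. On 1422611_s_at the Ca/Ca sarcomas read 3.10, 3.58, 3.56 and 3.21 and the Ca/+ sarcomas 4.19 and 4.86. The unadjusted limma p of the 2 brighter sets was 0.0253 and 0.00258 where 7.71% of probe sets were under 0.05, and the adjusted values were 0.634 and 0.569. Cell cycle genes also read lower in Ca/Ca sarcomas (median difference -1.16 over 18 genes, 0 of which passed), and their part in the Igf2bp3 values was not tested. In the same tissue contrast by genotype, Igf2bp3 differed by 0.15 among Ca/Ca arrays (adjusted p = 0.898) and by 1.45 among Ca/+ arrays (adjusted p = 0.0742), with an interaction of -1.30 (SE 0.63) that did not pass (limma adjusted p = 0.765).

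Among the sarcomas the 3 genes kept different orders. On 1450780_s_at Hmga2 was lowest in Ca/Ca sarcoma 3 (10.13) and highest in Ca/Ca sarcoma 5 (11.60), each a single array with no replicate of its own tumour. On 1422851_at Ca/+ sarcoma 1 (11.32) was just above Ca/Ca sarcoma 5 (11.30). Its SD over the sarcomas, 0.54, compares with a median of 0.24 over all genes. Igf2bp3 was lowest in Ca/Ca sarcoma 1 and highest in Ca/+ sarcoma 2. Ca/Ca sarcoma 5 had the lowest cell cycle mean (6.66, against a sarcoma median of 7.92), lymphocyte mean (4.49, against 6.30) and macrophage mean (9.78, against 10.56), and the part of cell composition in its Hmga2 level was not tested. Over the 6 sarcomas the 3 pairs of members had Pearson's r of 0.14 (Hmga2 and Igf2bp1), 0.07 (Hmga2 and Igf2bp3) and -0.05 (Igf2bp1 and Igf2bp3), with exact two-sided permutation p of 0.807, 0.899 and 0.932 and 0.932 after adjustment for each. Spearman's rho was 0.09, 0.09 and -0.03 (exact permutation p = 0.919, 0.919 and 1, and 1 after adjustment). Without the 2 sarcomas farthest from the median of the first gene of each pair, r was 0.82, 0.32 and -0.21.

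The genes whose levels followed Hmga2 most closely over the 6 sarcomas were Cuedc1 (r = 0.998), Cflar (0.997), a brake on caspase 8, and AI837181 (0.995). For Igf2bp1 they were Il1rapl2 (0.984), Dnaja1 (0.973), a co-chaperone of Hsp70, and Olfr17 (0.967), and for Igf2bp3 they were Pgap4 (0.983), the receptor kinase gene Alk (0.977) and Ipp (0.976). Il1rapl2, Olfr17 and Alk read below 3.95 on all arrays. With 6 points such values are common: the highest r of a gene to any other had a median of 0.993 over the 12393 genes. Between tissues, Cuedc1 fell in sarcomas by 1.97 (limma adjusted p = 0.00466) and the differences of Cflar (0.49) and AI837181 (0.16) did not pass (adjusted p = 0.293 and 0.593).

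Genes linked to Hmga proteins in other work, through their control or as partners, were counted beside Hmga2. Of 12 measured, 8 rose, 1 fell and 3 did not pass, with a median difference of 1.24, beside 13.1% and 13.2% of all genes and a median of 0.03. The 3 were Plag1, E4f1 and Trp53inp1, with differences of 0.11, 0.03 and 0.03. The list was not sorted by the direction of each reported link, so its count is not a measure of Hmga2 activity. The rises numbered 7 under cyclic loess and housekeeping gene centring and 5 under ribosomal protein gene centring. Of all genes, 1057, 885 and 614 passed as higher under these scalings. Snai1, Snai2 and E2f1 were the rises not passing under every scaling (highest limma adjusted p = 0.112, 0.212 and 0.0955). Cdkn2a, the locus of the p16 and p19 growth brakes, rose by 4.39 (SE 1.16, adjusted p = 0.0246), although Ca/+ sarcoma 2 (8.78) lay just under the Ca/Ca muscle (8.88). Its neighbour Cdkn2b, the p15 brake, rose by 3.39 (SE 0.65, adjusted p = 0.00643). Ccna2, cyclin A2, a gene that Hmga2 is known to switch on, rose by 2.25 (adjusted p = 0.0259), and it and Ccnb2 are also among the 18 cell cycle genes, of which 12 rose and 0 fell (Cdk1 by 2.88, Birc5 by 2.79 and Bub1 by 2.78). The gene that fell was Rb1, the retinoblastoma growth brake (fell by 0.91, adjusted p = 0.0221). Without the Ca/+ muscle 0 of the 12 linked genes and 0 of the 18 cell cycle genes passed in either direction, in a fit where 3% of all genes passed as higher and 6.64% as lower, and the median of the linked list was 0.65. Without the Ca/Ca muscle 8 linked genes rose and 0 fell, where 8.39% of all genes passed as higher and 10.4% as lower, and 8 cell cycle genes rose.

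Among 8 other high mobility group genes, which encode proteins without AT-hooks of the HMGA kind, 2 rose and 0 fell (median 0.51). Of all genes, 13.1% passed as higher and 13.2% as lower. The 2 that rose were the nucleosome binders Hmgn1 (1.05, adjusted p = 0.00825) and Hmgn3 (0.97, adjusted p = 0.0205). Neither passed without the Ca/+ muscle (differences of 0.97 and 1.11), and Hmgn3 did not pass without the Ca/Ca muscle (0.82). Both calls were lost under ribosomal protein gene centring, where 0 rose and 2 fell, beside 614 and 3536 of all genes.

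Of 9 measured mRNAs known as cargo of Igf2bp proteins, 3 rose, 2 fell and 4 did not pass, beside 13.1% and 13.2% of all genes (median 0.23, which was negative under cyclic loess and under housekeeping and ribosomal protein gene centring). Ptgs2, cyclooxygenase 2, rose by 4.27 (SE 0.94, adjusted p = 0.0118) and Cd44, a hyaluronan receptor, rose by 1.89 (SE 0.50, adjusted p = 0.024), while Lamb2, a laminin chain, fell by 1.30 (SE 0.22, adjusted p = 0.0035). The others that passed were Myc, which rose, and Gli1, which fell. Gli1 read 3.28 to 3.90 in sarcomas, all under 3.95, and 4.10 and 4.18 in the Ca/Ca and Ca/+ muscles. Its call was lost when either muscle was left out. Ribosomal protein gene centring left 1 of the 3 rises, where 614 of all genes passed as higher. Without the Ca/+ muscle 0 of the 9 passed, where 3% of all genes passed as higher and 6.64% as lower. Igf2 itself read 9.73, 6.34, 6.79 and 7.04 in Ca/Ca sarcomas 1, 2, 3 and 5, 5.88 and 8.12 in Ca/+ sarcomas 1 and 2, 8.66 in Ca/Ca muscle and 8.40 in Ca/+ muscle. Ca/Ca sarcoma 1 alone exceeded both muscles, and the difference of -1.21 (SE 0.89) did not pass (limma adjusted p = 0.368). Of 7 IGF axis genes 0 rose and 1 fell, Igf1, the related growth factor (fell by 2.14, SE 0.34, adjusted p = 0.00286). The Igf1 difference was -2.31 without the Ca/+ muscle and -1.96 without the Ca/Ca muscle. The falls of this list numbered 2 under cyclic loess and 3 under both housekeeping and ribosomal protein gene centring. Of all genes, 1918, 2493 and 3536 passed as lower under these scalings.

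Of 12 proteins that share granules with Igf2bp proteins, 3 rose, 2 fell and 7 did not pass, beside 13.1% and 13.2% of all genes (median 0.38). The median was 0.35 without the Ca/+ muscle. Under cyclic loess and under housekeeping and ribosomal protein gene centring 1 rose, where 1057, 885 and 614 of all genes passed as higher. The list was led by Hnrnpab (1.07, adjusted p = 0.00242), an RNA-binding protein whose call held with either muscle left out (adjusted p = 0.0358 and 0.0142). The poly(A) binder Pabpc1 rose by 0.86 (adjusted p = 0.0259, and up to 0.193 under other scalings) and Fxr2 fell by 0.70 (adjusted p = 0.0294), and both calls were lost when either muscle was left out. The others that passed were Hnrnpu, which rose, and Fxr1, which fell, and both calls were lost when either muscle was left out (adjusted p = 0.142 and 0.0569 for Hnrnpu, 0.145 and 0.254 for Fxr1). Of 6 measured genes of let-7 and microRNA processing, 1 rose, the microRNA effector Ago2 (0.89, adjusted p = 0.0264, lost when either muscle was left out and under some scalings, where the adjusted p reached 0.169), and 0 fell. Lin28a, which blocks let-7 maturation, read 2.23 to 2.64 in sarcomas, 2.37 in Ca/Ca muscle and 2.61 in Ca/+ muscle, all under 3.95, and its difference of -0.02 did not pass (limma adjusted p = 0.9302). Of 17 other reported let-7 targets, 4 rose, 2 fell and 11 did not pass, beside 13.1% and 13.2% of all genes (median 0.50). Leaving out the Ca/+ muscle left 0 rising and 1 falling, and under ribosomal protein gene centring 1 rose and 3 fell. Ccnd1, cyclin D1, rose by 2.65 (adjusted p = 0.015), Myc, which is also a cargo mRNA, rose by 1.24 (adjusted p = 0.0211, and up to 0.0906 under other scalings) and Fas, a death receptor, fell by 1.35 (adjusted p = 0.0196), and these 3 calls were lost without the Ca/+ muscle. The others that passed were Ezh2 and Cdk6, which rose and whose calls were lost when either muscle was left out (adjusted p = 0.184 and 0.205 without the Ca/+ muscle), and Cdc34, which fell and passed with either left out.

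Of 20 other embryonic and oncofetal genes 2 rose, 2 fell and 16 did not pass (median 0.06, negative under housekeeping and ribosomal protein gene centring), shares near the 13.1% and 13.2% of all genes. Without the Ca/+ muscle the median was 0.13. Crabp1, a retinoic acid carrier, rose by 4.91 and Tpbg, the trophoblast glycoprotein, by 3.16 (adjusted p = 0.0163 and 0.0105), and neither passed without the Ca/+ muscle (0.0734 and 0.097). Gpc3, the glypican of embryonic liver, fell by 2.03 (adjusted p = 0.00285) and passed with either muscle left out, and Sall4, a stem cell transcription factor, fell by 0.49 (adjusted p = 0.0394), a call lost when either muscle was left out (0.128 and 0.216).

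**Figure D4:**
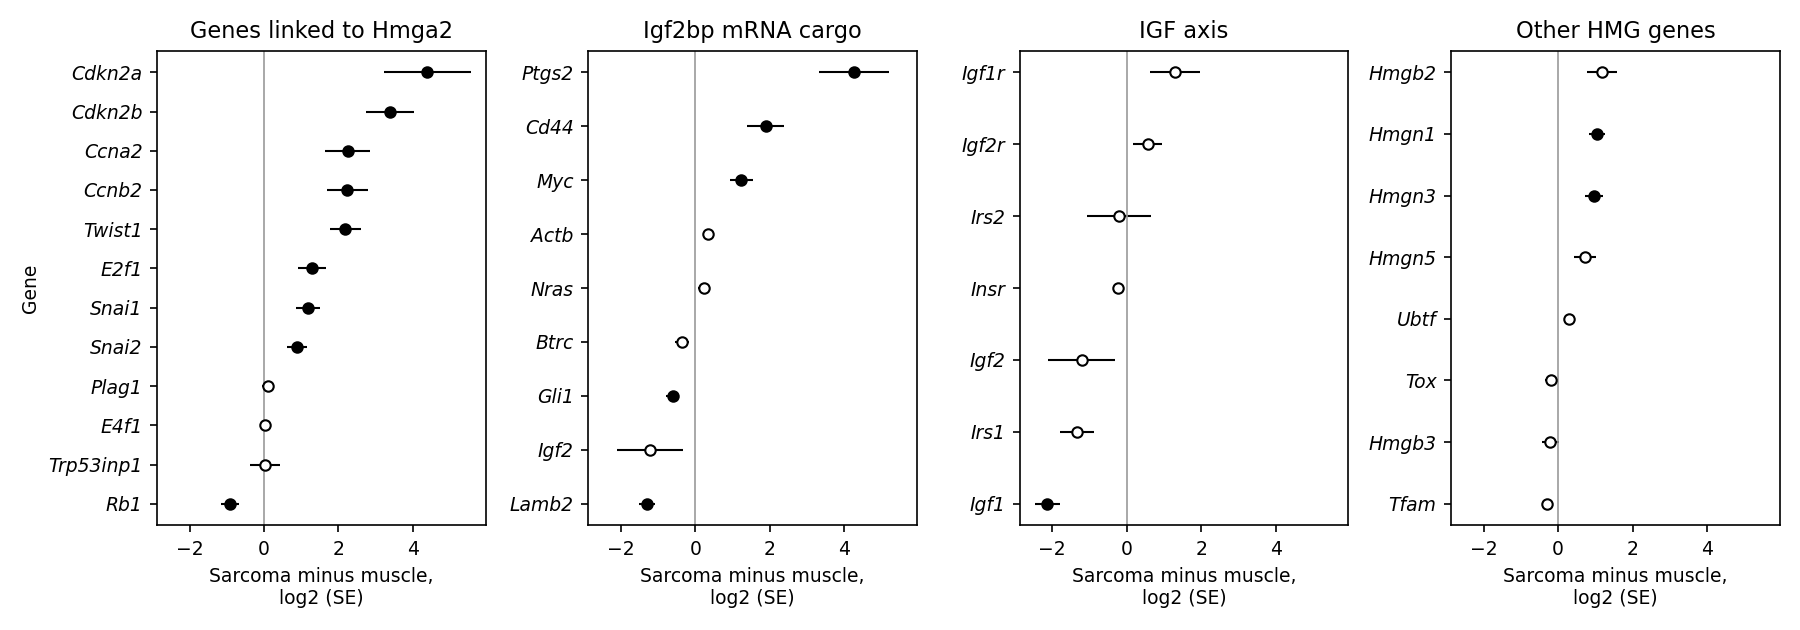
Difference of sarcoma minus muscle (log2, with its SE as a bar) for the measured genes of 4 lists. Filled points passed at an adjusted p under 0.05 and open points did not. Of the genes linked to Hmga proteins 8 of 12 lie filled on the right (5 under ribosomal protein gene centring), where 13.1% of all genes passed as higher. So do 3 of 9 Igf2bp cargo mRNAs, 0 of 7 IGF axis genes and 2 of 8 other HMG genes. Without the Ca/+ muscle the median of the Hmga linked list was 0.65 rather than 1.24. The lists were chosen with earlier results known, and their counts were not tested against each other.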

How the data were processed

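Each deposited file gives log2 values by probe set, made by the authors with RMA per the submitters' processing notes. RMA corrects background, gives arrays a shared distribution and summarises probes, so change in total RNA is not measured, and no version of it is stated. Scan batches are not labelled. The number of arrays limits the precision. Of 22690 probe sets, 64 controls were left out, 20380 had 1 symbol in the platform annotation, 691 had several, and 1555 were unnamed. Each of 12393 genes was represented by its probe set of highest mean. Groups came from the titles. Tests were limma 3.58.1 in R 4.3.3 (lmFit, eBayes), with Benjamini-Hochberg adjustment over all genes (threshold 0.05), and this is the source of all adjusted p-values of genes. The procedure was tested on simulated data.

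The members, lists and tests were chosen with earlier results of these data known. Named genes were the members, up to 3 called genes of largest difference per list, and the 3 genes of highest r per member; Igf2, Lin28a, Eif2s3y, Xist, markers and other single genes that complete a small count and the olfactory receptor range were chosen after values were seen. Alternatives covered 5 scalings, probe set choice, dim filters at 25% and 50%, variance models, single arrays left out and genotype splits. Symbols for 1 list gene (Zcchc6, as Tut7) came from synonyms. Figures used Python 3.11.15 and matplotlib 3.10.9.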

Additional observations from a re-analysis of the deposited data

How the results depend on the processing

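Hmga2 kept its direction in all 22 alternatives for sarcoma against muscle and its call in all but Ca/Ca arrays only (2.21, adjusted p = 0.0993); single arrays left out gave 2.34 to 6.39, the 5 scalings 4.02 to 4.37. Igf2bp3 stayed uncalled in 20 of 20 (0.15 to 1.45). Igf2bp1 stayed uncalled and turned to -0.21 under housekeeping gene centring and -0.29 under ribosomal protein gene centring (single arrays left out: -0.017 to 0.13). These centrings moved the median of all genes to -0.24 and -0.32, and the genes called higher to 885 and 614, with 1057 under cyclic loess and 1626 of 3256 as reported. The count of 3256 became 5602 over probe sets, 601 with Ca/Ca arrays only, 1287 with Ca/+ arrays only (fewer samples), and 1195 to 3451 with single arrays left out.

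For Ca/Ca against Ca/+ sarcoma no member passed in any alternative. The count was 0 to 1 with single arrays left out, and Igf2bp1 turned to 0.20 with the mean of probe sets. Tumour numbers 1 and 2 occur in both genotypes but mark no shared animal; deviations of same-numbered tumours correlated at -0.189 and 0.293. The fit with the number as a replicate block called 0 genes, with Hmga2 at -0.47 (adjusted p = 0.711) and Igf2bp3 at -0.97 (0.682).

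The interaction called 1 gene as reported, 5 over probe sets, 0 without the dimmest 25% or 50%, 17 with trend and robust, 13 with array weights and 0 to 1 with single arrays left out. Igf2bp1 there turned to -0.13 under quantile normalization, -0.14 under cyclic loess, -0.17 under ribosomal protein gene centring and -0.043 with array weights (-0.0849 to 0.0913 with single arrays left out). Hmga2 ranged from -4.71 to -4.13 and never passed. Pairs of members passed 0 times in 8 alternatives. With single sarcomas left out r ran from -0.22 to 0.49 (Hmga2 and Igf2bp1), -0.0794 to 0.36 (Hmga2 and Igf2bp3) and -0.33 to 0.28 (Igf2bp1 and Igf2bp3); with the mean of probe sets the first was -0.0678 and the last -0.74 (adjusted p = 0.246), and under cyclic loess the last was 0.16. The cause of these changes was not tested. Readings near the floor limit both Igf2bp genes.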
